A study of Rattus norvegicus with 16 samples.

Results

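The 5 genes described here, Gfap, Vim, Nes, Cd44 and Serpina3n, are genes that astrocytes raise when they become reactive. They were taken by symbol from an Affymetrix rat genome array, and 6 of the 31099 probe sets carry 1 of these symbols alone: 2 for Cd44 and 1 for each other gene. They make up 5 of the 14218 genes that could be tested. The arrays were hybridised with polyadenylated RNA from the lateral cortex at the contusion. Every animal was a male Wistar rat, 8 weeks old, that had undergone a craniectomy over the right parietal cortex with a cranial adapter fixed to the skull, was housed for 48 h, and was perfused with saline at the end. The shams therefore carry the craniectomy too and differ by the absence of the pressure pulse. Injured rats were given lateral fluid percussion of moderate strength, in which a fluid pulse strikes the dura, and were studied 3, 6, 12 or 48 h later with 3 arrays per time. Shams gave 1 array at each time, and the study groups the 3, 6 and 12 h shams as the control of the first 3 times (3 arrays, called the early shams below) and sets the 48 h injury against the 48 h sham (1 array), since that sham stood apart from the others.

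Astrocytes answer injury with reactive gliosis, in which the cell body enlarges, the intermediate filament network is rebuilt and, around a severe lesion, a border forms. Gfap encodes the filament protein of mature astrocytes, Vim (vimentin) a partner filament that immature astrocytes, vessel cells and leukocytes also use, and Nes (nestin) a filament of neural progenitors that reactive astrocytes and vessel cells can express. Cd44 encodes a surface receptor for the matrix polymer hyaluronan and is also abundant on leukocytes. Serpina3n encodes a secreted inhibitor of serine proteases, and signalling through gp130 and STAT3 is a known driver of Gfap and of acute phase genes of this kind. The tissue is bulk cortex, so fewer cells of a type and less RNA per cell cannot be told apart.

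The genes lie on 5 chromosomes of the rat assembly GRCr8: Gfap at chr10:88352987-88361661, Vim at chr17:81577261-81585746, Nes at chr2:175735715-175745631, Cd44 at chr3:109610824-109699776 and Serpina3n at chr6:129088392-129095950. The 250 bases before the start of Gfap, Vim and Serpina3n (RefSeq, GRCr8) are shown because in these genes the RefSeq start is the edge of the gene. For Nes and Cd44 it lies inside the gene's span, so their windows are counted below but not shown. Capitals mark the stretches TTCNNNGAA (a STAT site) or TTCNNNNGAA (the same ends with a wider spacer), TATAAA (a core promoter box) and CCAAT on either strand.
Gfap, chr10:88361662-88361911, minus strand: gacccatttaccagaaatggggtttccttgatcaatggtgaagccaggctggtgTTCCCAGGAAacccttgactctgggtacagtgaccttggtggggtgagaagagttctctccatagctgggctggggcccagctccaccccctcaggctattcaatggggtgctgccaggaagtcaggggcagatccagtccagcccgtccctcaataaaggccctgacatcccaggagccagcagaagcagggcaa
Vim, chr17:81577011-81577260, plus strand: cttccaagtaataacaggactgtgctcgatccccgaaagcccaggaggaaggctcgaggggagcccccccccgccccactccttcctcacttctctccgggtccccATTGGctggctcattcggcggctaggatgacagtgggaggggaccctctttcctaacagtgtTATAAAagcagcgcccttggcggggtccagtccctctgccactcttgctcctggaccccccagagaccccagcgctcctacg
Serpina3n, chr6:129088142-129088391, plus strand: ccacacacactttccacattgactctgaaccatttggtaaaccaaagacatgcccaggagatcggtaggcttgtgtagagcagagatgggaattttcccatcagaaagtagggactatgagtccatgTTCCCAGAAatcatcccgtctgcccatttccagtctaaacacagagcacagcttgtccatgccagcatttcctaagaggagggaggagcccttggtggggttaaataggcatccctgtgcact
TTCNNNGAA was present in 1 of the 5 genes' windows, that of Serpina3n at -123 to -115 from the start, and in 7.52% of 27457 RefSeq windows of the same length. TTCNNNNGAA was also present in 1, that of Gfap at -196 to -187, and in 6.29% of all windows. TATAAA was found in the Vim window at -82 to -77, against 13.1% of all windows, and CCAAT in the Vim window on the minus strand at -144 to -140, against 34.3%. The GC box GGGCGG was found in the Vim and Nes windows, against 32.4% of all, and is not in capitals. These are letter matches, the motifs were chosen with the sequences in view, and no binding was measured.

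Values are the authors' RMA log intensities, taken here as log2, from which each probe set's median over the 16 arrays had been subtracted in the deposited table. A value of 1 therefore lies 1 log2 unit above that gene's own median, and no value shows whether a gene was detected or how its level compares with another gene's. For the same reason the presence of astrocytes could not be checked from the level of their markers. No pair of arrays was a duplicate. Over genes, the SD was 0.387 in injured 48 h replicate 2 and 0.372 in injured 12 h replicate 2, against 0.199 to 0.310 in the other 14 arrays, and injured 12 h replicate 2 also had the lowest polyA spike-in controls, with a mean of -1.50 over 27 probe sets. Markers of the choroid plexus, the tissue that makes cerebrospinal fluid, set 3 arrays apart: the mean of 5 such markers was 1.51 and 1.77 on injured 3 h replicates 2 and 3 and 1.57 on injured 12 h replicate 3, against -0.21 to 0.46 on the other injured arrays, -0.05 to -0.02 on the early shams and -0.12 on the 48 h sham. Ttr (transthyretin), which encodes a secreted carrier protein, read 5.16, 5.98 and 5.49 on these 3 arrays and 1.35 and 1.97 on replicate 1 of the injured 3 and 12 h groups, against -0.27 to 0.15 on the early shams. Results that moved without these 3 arrays are given beside the gene, with the lone injured 3 h array left then assumed to vary like the other groups. Differences below are log2 differences with the standard error (SE), from a single limma model of all 16 arrays, with Benjamini-Hochberg adjustment over 14218 genes and a call at an adjusted p under 0.05.

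The 5 genes did not move as 1 block. At 3 h none of the 5 was called against the early shams (limma, 1 of 5 at an unadjusted p under 0.05), where 0.584% of all genes were called. At 6 h Cd44 and Serpina3n were higher, 2 of 5 genes, where 1.98% of all genes were called higher. At 12 h Gfap joined them, which gave 3 of 5 against 3.49%. At 48 h Gfap, Vim, Nes and Cd44 were higher than the early shams, 4 of 5 against 6.37%, while against the 48 h sham none of the 5 was called (limma, 3 of 5 at an unadjusted p under 0.05) and none of all 14218 genes either (0%, with 1061 at an unadjusted p under 0.05). The median log2 difference of the 5 genes from the early shams was -0.05 at 3 h, 0.84 at 6 h, 1.16 at 12 h and 1.85 at 48 h, where the median of all genes lay between -0.02 and -0.01. These 4 comparisons with the early shams share the same 3 sham arrays.

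**Figure D1:**
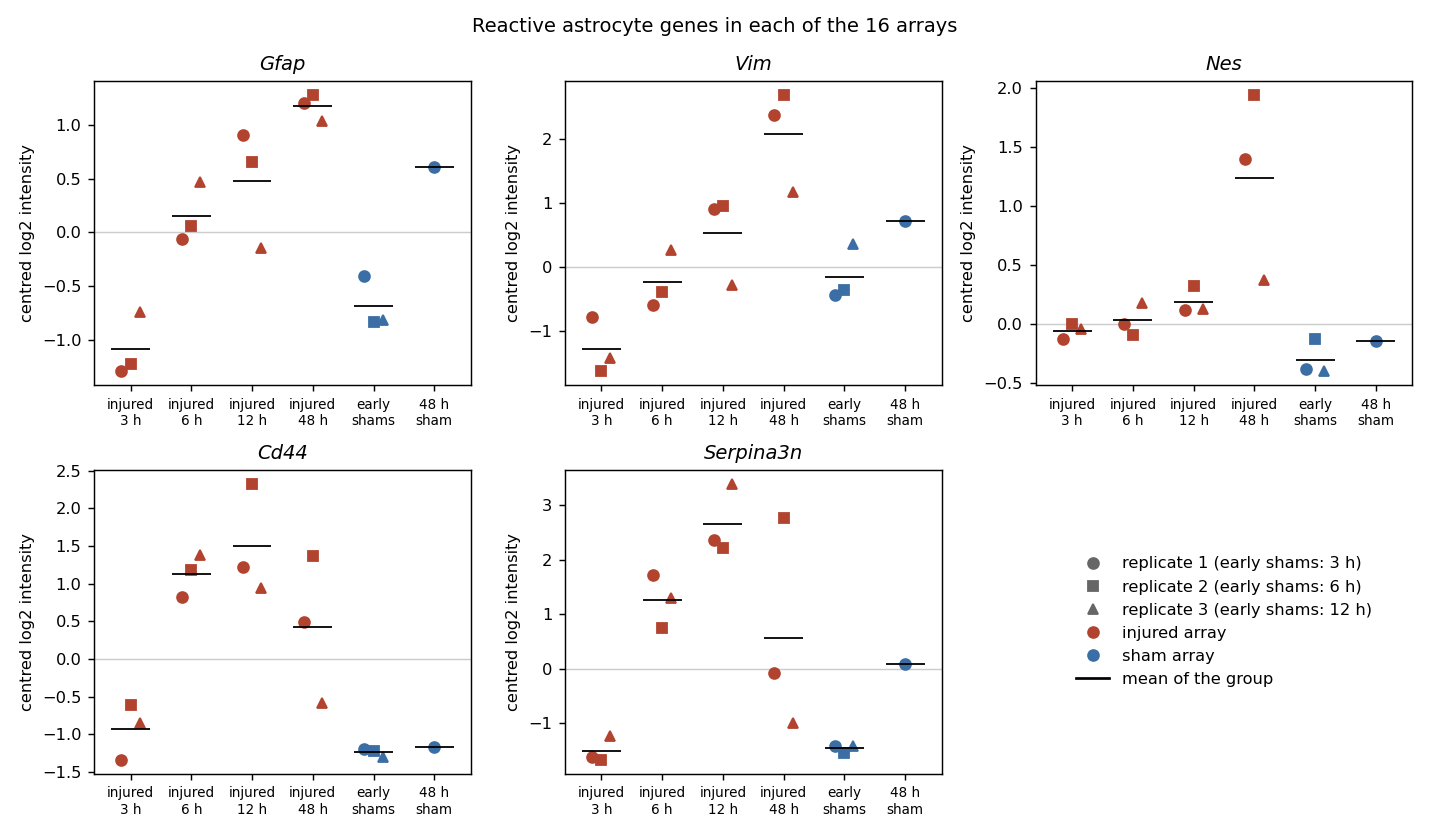
Centred log2 intensity of each gene (vertical axis) on every array, by group along the horizontal axis with the injured groups left of the shams. Points are arrays and bars are group means. In Gfap the 3 injured 48 h arrays sit between 1.04 and 1.28, while in Serpina3n they are spread from -1.0 to 2.77.

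Gfap, the astrocyte filament gene, was above the early shams at 12 and 48 h. Its values were -1.29, -1.22 and -0.74 on the injured 3 h arrays, -0.06, 0.06 and 0.47 at 6 h, 0.91, 0.66 and -0.14 at 12 h, and 1.20, 1.28 and 1.04 at 48 h, against -0.40, -0.83 and -0.81 on the 3, 6 and 12 h shams and 0.61 on the 48 h sham. At 3 h the injured arrays overlapped the early shams, and at 6, 12 and 48 h all 3 lay above them. The difference from the early shams was -0.40 ± 0.24 at 3 h (limma, adjusted p = 0.653), 0.84 ± 0.24 at 6 h (adjusted p = 0.0825), 1.16 ± 0.24 at 12 h (2.23-fold, adjusted p = 0.0123) and 1.85 ± 0.24 at 48 h (3.61-fold, adjusted p = 0.000876). The spread of Gfap was smallest at 48 h, with an SD of 0.12 (n = 3), against 0.24 in the early shams (n = 3). Without injured 12 h replicate 2 the 12 h difference was 1.07 (adjusted p = 0.0568) and without the 6 h sham 1.08 (adjusted p = 0.0646), and with all 4 shams as controls it was 0.83 (adjusted p = 0.121).

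Vim was higher at 48 h, and its mean at 3 h was the lowest of all groups. The values were -0.77, -1.62 and -1.42 on the injured 3 h arrays, -0.58, -0.39 and 0.27 at 6 h, 0.91, 0.95 and -0.27 at 12 h, and 2.38, 2.69 and 1.17 at 48 h, against -0.43, -0.36 and 0.36 on the early shams and 0.73 on the 48 h sham. The injured 3 h arrays were all below the early shams, those of 6 and 12 h overlapped them, and those of 48 h were all above every sham. At 3 h the difference was -1.13 ± 0.41 (95% interval -2.01 to -0.24, unadjusted p = 0.0163, limma adjusted p = 0.377), which did not pass. At 6 h it was -0.09 ± 0.41 and at 12 h 0.67 ± 0.41, with adjusted p of 0.955 and 0.391. At 48 h it was 2.22 ± 0.41 (4.67-fold, adjusted p = 0.00551), and 1.52 (adjusted p = 0.0205) after quantile normalization. The arrays with the lowest Vim at 3 and 12 h were the 3 with the highest choroid plexus markers. Without them the difference was -0.63 at 3 h (adjusted p = 0.857) and 1.07 at 12 h (adjusted p = 0.146). The part of that tissue in the values was not tested.

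Nes was higher at 48 h, and no earlier time passed the test. On the injured arrays it read -0.13, 0.00 and -0.04 at 3 h, 0.00, -0.09 and 0.18 at 6 h, 0.12, 0.32 and 0.13 at 12 h, and 1.40, 1.94 and 0.37 at 48 h, against -0.38, -0.13 and -0.40 on the early shams and -0.14 on the 48 h sham. The first 3 times stayed within a narrow band, and the 48 h arrays all lay above it. Nes differed from the early shams by 0.25 ± 0.27, 0.33 ± 0.27 and 0.49 ± 0.27 at 3, 6 and 12 h (limma adjusted p of 0.853, 0.625 and 0.323) and by 1.54 ± 0.27 at 48 h (2.91-fold, adjusted p = 0.00361). With only the arrays of the 2 groups in the model the 48 h difference had an adjusted p of 0.0532. Of 11 other genes of intermediate filaments and their linkers, such as the neurofilament and lamin genes, none was called at 3, 6 or 48 h against the early shams (limma, 1, 1 and 3 at an unadjusted p under 0.05). Of all 14218 genes, 1358, 2029 and 3603 had an unadjusted p under 0.05 at these times. Of the 11, 1, the muscle filament gene Des, was higher at 12 h (0.42 ± 0.09, adjusted p = 0.0208), where 3.49% of all genes were called higher.

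Cd44, the hyaluronan receptor, was higher at 6, 12 and 48 h, with its highest mean at 12 h. Of its 2 probe sets, the first in the table read -1.11, -0.44 and -0.91 on the injured 3 h arrays, 0.89, 1.12 and 1.21 at 6 h, 1.38, 1.97 and 1.02 at 12 h, and 0.44, 1.11 and -0.64 at 48 h, against -1.21, -1.11 and -1.38 on the early shams and -1.14 on the 48 h sham. The other probe set gave -1.57, -0.78 and -0.78 at 3 h, 0.75, 1.25 and 1.56 at 6 h, 1.07, 2.69 and 0.87 at 12 h, and 0.54, 1.63 and -0.54 at 48 h, against -1.17, -1.33 and -1.21 on the early shams and -1.21 on the 48 h sham. Against the shams both probe sets placed the arrays alike: injured 3 h arrays that overlapped the shams and later injured arrays that were all above every sham. Averaged over both, Cd44 was 1.13 ± 0.29 at 6 h, 1.50 ± 0.73 at 12 h and 0.42 ± 0.98 at 48 h, against -1.23 ± 0.05 in the early shams (SD, n = 3 each). The difference from the early shams was 0.30 ± 0.41 at 3 h (limma, adjusted p = 0.896), 2.37 ± 0.41 at 6 h (5.15-fold, adjusted p = 0.00621), 2.74 ± 0.41 at 12 h (6.66-fold, adjusted p = 0.00177) and 1.66 ± 0.41 at 48 h (3.16-fold, adjusted p = 0.0233). The 48 h call was lost in 5 of the 6 fits that left out an array: 1.62 without injured replicate 1, 1.19 without injured replicate 2, and 1.68, 1.67 and 1.63 without the 3, 6 and 12 h sham (adjusted p of 0.0571 to 0.105). After quantile normalization it was 1.04 (adjusted p = 0.0237).

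Serpina3n, the protease inhibitor gene, had the largest change of the 5 genes, at 12 h, and the widest spread, at 48 h. Its values were -1.63, -1.68 and -1.24 on the injured 3 h arrays, 1.72, 0.75 and 1.30 at 6 h, 2.37, 2.22 and 3.40 at 12 h, and -0.09, 2.77 and -1.0 at 48 h, against -1.42, -1.56 and -1.42 on the early shams and 0.09 on the 48 h sham. The 6 and 12 h arrays were all above every sham, and the 48 h arrays were above the early shams but fell on both sides of the 48 h sham. The difference from the early shams was -0.05 ± 0.67 at 3 h (limma, adjusted p = 0.995), 2.72 ± 0.67 at 6 h (6.60-fold, adjusted p = 0.0470), 4.13 ± 0.67 at 12 h (17.5-fold, adjusted p = 0.00320) and 2.03 ± 0.67 at 48 h (adjusted p = 0.0730). The 6 h call was lost whichever of the 6 arrays was left out (2.49 to 2.98, adjusted p of 0.0993 to 0.166), whereas at 48 h the difference was 2.81 without injured replicate 3 (adjusted p = 0.00816), 0.92 without injured replicate 2 (adjusted p = 0.182) and 1.19 after quantile normalization (adjusted p = 0.121). At 12 h it was 3.06 after quantile normalization (adjusted p = 0.00128). Without the 3 arrays highest in choroid plexus markers the 6 h difference stayed 2.72 but was not called. None of those arrays is in the 6 h comparison. Serpina3n belongs to a family of closely related inhibitor genes, and cross-hybridisation of its probe set was not tested.

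As list means, markers of neutrophils and of monocytes and macrophages were higher at 6 and 12 h, when Cd44 and Serpina3n were both called. The mean of 6 neutrophil markers was 0.97, 2.10 and 1.62 on the injured 6 h arrays and 1.63, 2.13 and 1.57 on those of 12 h, against -0.43, -0.52 and -0.23 on the early shams, and at 3 h it lay between -0.41 and -0.23. Of the 6, S100a8 and S100a9 were called higher at 6 h, and Cxcr2 as well at 12 h. At these times 1.98% and 3.49% of all genes were called higher. The other neutrophil markers were not called, and the median difference of the 6 was 0.65 at 6 h and 1.31 at 12 h. S100a9, a calcium-binding protein gene of neutrophils, was above the early shams by 5.58 ± 0.73 at 6 h and 5.67 ± 0.73 at 12 h (limma, adjusted p of 0.000829 and 0.00058). The mean of 10 monocyte and macrophage markers was -0.13, 0.13 and 0.52 at 6 h and 0.23, 1.0 and 0.18 at 12 h. On the early shams it was -0.57 to -0.53. Cd14 and Clec7a were called higher at both times. The other 8 were not called, and the median difference of the 10 was 0.33 at 6 h and 0.85 at 12 h. Microglia markers went the other way. The mean of 8 was -0.81 to -0.34 at 6 h and -0.72 to -0.53 at 12 h, against 0.18 to 0.33 on the early shams. Of them, 3 were called lower at 6 h and 4 at 12 h, with P2ry12 among these at both times. At 12 h 1.38% of all genes were called lower. At 6 h 379 of 14218 genes were called in either direction. The mean of 7 T lymphocyte markers lay between -0.10 and 0.08 at these times, against -0.01 to 0.06. Hbb, a haemoglobin gene, was called higher at 3, 6 and 12 h, and the other 2 of 3 measured erythrocyte markers were not called. The median difference of the 3 was 0.36, 0.44 and 0.02 at these times. At 3 h 0.584% of all genes were called. The part of these cells in the values of Cd44 and Serpina3n was not tested.

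**Figure D2:**
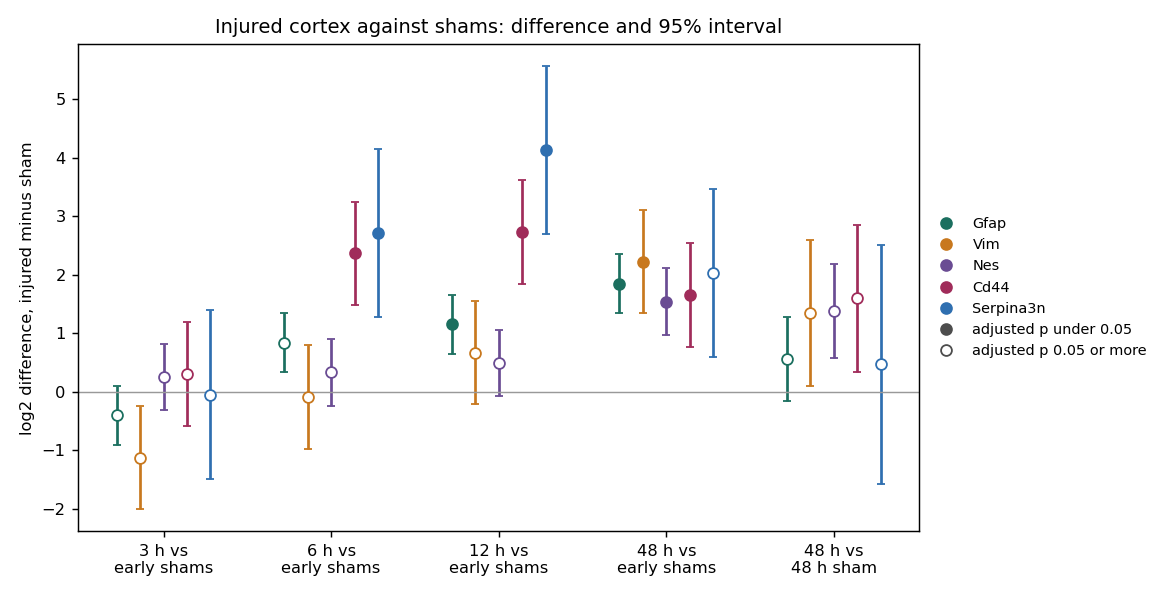
Log2 difference of each gene, injured minus sham (vertical axis), at 3, 6, 12 and 48 h against the early shams and at 48 h against the 48 h sham (horizontal axis). Bars are 95% intervals and filled points mark an adjusted p under 0.05. Cd44 and Serpina3n have their largest difference from the early shams at 12 h (2.74 and 4.13), and Gfap, Vim and Nes at 48 h (1.85, 2.22 and 1.54).

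At 48 h the choice of sham decided whether the genes were called. Against the 48 h sham, injured arrays differed by 0.56 ± 0.33 for Gfap, 1.35 ± 0.58 for Vim, 1.38 ± 0.38 for Nes, 1.60 ± 0.58 for Cd44 and 0.47 ± 0.95 for Serpina3n (limma, adjusted p of 0.408 to 0.949, n = 3 and 1, the lone sham assumed to vary like the other groups). All 3 injured arrays were above the 48 h sham in 4 of 5 genes, where 25% of all genes had them all above. The 95% intervals were -0.15 to 1.28 for Gfap and 0.57 to 2.18 for Nes. Without injured replicate 3 Nes was called, at 1.81 (adjusted p = 0.001), and without injured replicate 2 it was 1.02 (adjusted p = 0.581). The direction of Serpina3n turned without injured replicate 2 (-0.63, adjusted p = 0.997), and without injured replicate 3 it was 1.25 (adjusted p = 0.624). The 48 h sham itself differed from the early shams by 1.29 ± 0.33 for Gfap (unadjusted p = 0.00175, adjusted p = 0.419), 1.56 ± 0.95 for Serpina3n and 0.87 ± 0.58 for Vim, and by 0.16 ± 0.38 for Nes and 0.06 ± 0.58 for Cd44. None of the 5 was called there (limma, 1 of 5 at an unadjusted p under 0.05), where 0.00703% of all genes were.

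The steps between times were tested within the injured arrays, with no sham involved. From 3 to 6 h, Cd44 rose by 2.06 ± 0.41 (limma, adjusted p = 0.0299) and Gfap by 1.24 ± 0.24 (adjusted p = 0.0232), 2 of 5 genes where 0.795% of all genes were called higher. Serpina3n differed by 2.77 ± 0.67 (adjusted p = 0.0631), Vim by 1.04 ± 0.41 (adjusted p = 0.258) and Nes by 0.09 ± 0.27 (adjusted p = 0.926). The Cd44 call was lost whichever of the 6 arrays was left out (1.86 to 2.22, adjusted p of 0.0599 to 0.154). The Gfap call was lost without injured 3 h replicate 1 (1.14) or 2 (1.17) or injured 6 h replicate 2 (1.29) or 3 (1.08), with adjusted p of 0.0886 to 0.127. Without the 3 arrays highest in choroid plexus markers the Cd44 step was 2.47 and was not called (adjusted p = 0.106).

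From 6 to 12 h none of the 5 was called (limma, 0 of 5 also at an unadjusted p under 0.05), where 0.0141% of all genes were called. Serpina3n differed most, by 1.41 ± 0.67 (adjusted p = 0.578), with all 3 of its 12 h arrays above those of 6 h. Over the whole span of 3 to 12 h, Serpina3n rose by 4.18 ± 0.67 (18.1-fold, adjusted p = 0.00303), Cd44 by 2.43 ± 0.41 (adjusted p = 0.00437), Vim by 1.80 ± 0.41 (adjusted p = 0.0188) and Gfap by 1.56 ± 0.24 (adjusted p = 0.00211), 4 of 5 genes where 4.82% of all genes were called higher. Nes differed by 0.25 ± 0.27 (adjusted p = 0.619). The Vim call was lost without injured 3 h replicate 2 (1.62) or 3 (1.72) or injured 12 h replicate 1 (1.61) or 2 (1.59), with adjusted p of 0.0503 to 0.0781. Without the 3 arrays highest in choroid plexus markers, Vim (1.70, adjusted p = 0.129) and Serpina3n (3.93, adjusted p = 0.091) were not called and the Cd44 step was 3.12 (adjusted p = 0.0382). After quantile normalization the Serpina3n step was 3.54 (adjusted p = 0.000432).

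From 12 to 48 h the genes parted. Vim rose by 1.55 ± 0.41 (limma, adjusted p = 0.0221) and Nes by 1.05 ± 0.27 (adjusted p = 0.0178), 2 of 5 genes where 8.19% of all genes were called higher, and Serpina3n fell by 2.10 ± 0.67 on the log2 scale (4.30-fold, adjusted p = 0.0489), 1 of 5 where 7.14% were called lower. Gfap differed by 0.70 ± 0.24 (adjusted p = 0.0615) and Cd44 by -1.08 ± 0.41 (adjusted p = 0.0946). The Serpina3n call held only without injured 48 h replicate 2, where the difference was -3.21, and in the other 5 fits it was -2.32 to -1.32 (adjusted p of 0.0644 to 0.16, with -1.73 without injured 12 h replicate 3, -1.78 without injured 48 h replicate 1 and -1.32 without injured 48 h replicate 3). The Vim call was lost without injured 12 h replicate 3 (1.15) or injured 48 h replicate 1 (1.40) or 2 (1.24), and that of Nes without injured 48 h replicate 1 (0.96) or 2 (0.69), while Gfap was called without injured 12 h replicate 1 (0.91, adjusted p = 0.0199) and Cd44 without injured 48 h replicate 2 (-1.55, adjusted p = 0.0212). The first Cd44 probe set was called lower (-1.15, adjusted p = 0.0395) and the other was not (-1.0, adjusted p = 0.215). Averaged over both, Cd44 was also called after quantile normalization (-1.13, adjusted p = 0.0133) and without both arrays of the widest spread (-1.13, adjusted p = 0.0441). Without the 3 arrays highest in choroid plexus markers none of the 5 steps was called: Vim differed by 1.15 (adjusted p = 0.101), Nes by 1.02 (adjusted p = 0.0805) and Serpina3n by -1.73 (adjusted p = 0.198).

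Ordered by mean, Cd44 and Serpina3n were highest at 12 h and Gfap, Vim and Nes at 48 h. For Cd44 the 12 h and 6 h arrays overlapped, as did those of 6 and 48 h. For Gfap the next group below the injured 48 h arrays was the 48 h sham, 0.56 lower and not overlapping, followed by the injured 12 h arrays, which overlapped that sham. For Vim the mean of the injured 48 h arrays stood 1.35 above the 48 h sham, with no overlap. For Nes the mean of the injured 48 h arrays stood 1.05 above that of the injured 12 h arrays. The Nes arrays of these times did not overlap, but the lowest of 48 h (0.37) lay close to the highest of 12 h (0.32). For Serpina3n the mean of the injured 12 h arrays stood 1.41 above that of 6 h, with no overlap.

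The injured 48 h replicates fell in the same order in all 5 genes, with replicate 2 highest and replicate 3 lowest. Their range was 0.24 for Gfap, 1.52 for Vim, 1.57 for Nes, 1.96 for Cd44 and 3.77 for Serpina3n. Markers of leukocytes had the same high array, as did those of microglia, endothelium, meninges and proliferation, but not those of resting astrocytes. The mean of 10 endothelial markers stood 0.37, 0.48 and 0.18 above the early shams on replicates 1, 2 and 3. On the 48 h sham it stood 0.34 above them. The mean of 9 meningeal and fibroblast markers stood 0.24, 0.76 and 0.23 above the early shams on these replicates. The 48 h sham stood 0.59 above them, higher than replicates 1 and 3. The SD over all genes had the same order as the 5 genes, with 0.310, 0.387 and 0.231 on replicates 1, 2 and 3. The mean of 10 monocyte and macrophage markers stood 1.36, 2.27 and 0.73 above the early shams on injured 48 h replicates 1, 2 and 3, against 0.41 on the 48 h sham, and that of 6 neutrophil markers 0.32, 1.49 and 0.23, against 0.41. Cd68, a lysosomal marker of macrophages and activated microglia, read 2.88, 3.91 and 1.48 on the injured 48 h arrays, against -0.44, -0.18 and -0.04 on the early shams and 0.04 on the 48 h sham. Of the 10 monocyte and macrophage markers, 6 were higher at 48 h against the early shams, as were 5 of 8 microglia markers and 6 of 9 proliferation and progenitor markers. Of all genes, 6.37% were called higher there. The median differences of these lists were 1.43, 1.14 and 0.83 from the early shams and 0.94, 0.63 and 0.36 from the 48 h sham. The mean of the proliferation and progenitor markers stood 1.17, 1.27 and 0.43 above the early shams on replicates 1, 2 and 3, against 0.65 on the 48 h sham. Of these, Mki67 read 2.48, 2.87 and 0.96, against 1.37 on that sham. The part of these cells in the values of the 5 genes was not tested.

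**Figure D3:**
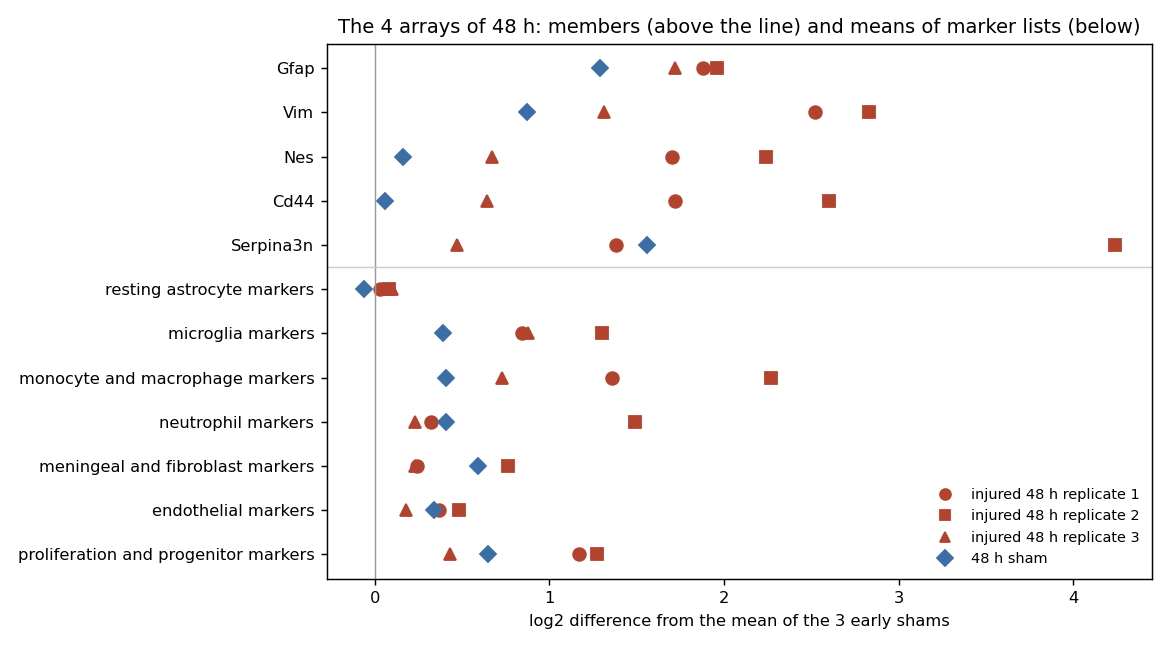
Log2 difference from the mean of the 3 early shams (horizontal axis) for each of the 5 genes, above the line, and for the means of 7 marker lists, below it. Red symbols are the 3 injured 48 h arrays and the blue diamond is the 48 h sham. Replicate 2 is highest in all 5 genes, while the list of 14 resting astrocyte markers lies between -0.06 and 0.10 on these 4 arrays.

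As a mean, markers of resting astrocytes moved little. Their mean over 14 genes lay between 0.08 and 0.15 on the injured 48 h arrays and between -0.17 and -0.10 on those of 12 h, against 0.03 to 0.06 on the early shams. At 12 h 3 of 14 were lower (Aldh1l1, Gjb6 and Slc4a4), where 1.38% of all genes were called lower. At 48 h 2 of 14 were higher (Aqp4, the water channel of astrocyte end-feet, and Gja1, a gap junction gene), where 6.37% of all genes were called higher. From 12 to 48 h within the injured arrays 5 of 14 were called higher, where 8.19% of all genes were. Aqp4 was 0.45 ± 0.11 above the early shams at 48 h (limma, adjusted p = 0.0231), but 0.05 ± 0.16 from the 48 h sham (adjusted p = 0.974), and Gja1 differed from that sham by 0.25 ± 0.11 (adjusted p = 0.649). Slc1a2, the main glutamate transporter of astrocytes, differed from the early shams by 0.04 ± 0.09 at 48 h (adjusted p = 0.834).

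Genes known as pan-reactive in mouse astrocytes were counted as a list with the 5 genes left out, 8 of 9 of them measured. None was called at 3 h (limma, 3 at an unadjusted p under 0.05), 4 were higher at 6 h, 6 at 12 h and 4 at 48 h against the early shams, and none was lower. Of all genes, 0.584% were called at 3 h, and 1.98%, 3.49% and 6.37% were called higher at 6, 12 and 48 h. Lcn2, which encodes the iron-siderophore carrier lipocalin, was higher by 4.38 ± 0.45 at 6 h, 5.69 ± 0.45 at 12 h and 5.62 ± 0.45 at 48 h (limma, adjusted p of 0.000131, 1.86e-05 and 0.00011). Cxcl10, an interferon-induced chemokine, was higher by 4.43 ± 0.64 at 6 h and 4.62 ± 0.64 at 12 h (adjusted p of 0.00162 and 0.00094), and Hspb1, a small heat shock protein gene, by 2.81 ± 0.53 at 48 h (adjusted p = 0.00606). The list's median difference from the early shams was 0.26, 2.34, 2.79 and 1.53 at 3, 6, 12 and 48 h. Against the 48 h sham the median at 48 h was 0.15 and none of the 8 was called (limma, 1 at an unadjusted p under 0.05), while that sham itself had a median of 1.38 above the early shams. Hspb1 read 0.38, 1.64 and -0.84 on the injured 48 h arrays, on both sides of the 48 h sham at -0.25, and differed from it by 0.64 ± 0.75 (adjusted p = 0.900). Lcn2 differed from the 48 h sham by 3.83 ± 0.64 (adjusted p = 0.123), with all 3 injured arrays above it.

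The mouse lists of genes tied to reactive astrocytes after lipopolysaccharide or after ischaemia both held called genes. Of the lipopolysaccharide list 8 of 9 genes were measured: 1 was lower at 3 h, where 0.0985% of all genes were called lower, and 2, 5 and 4 were higher at 6, 12 and 48 h against the early shams. Of all genes, 1.98%, 3.49% and 6.37% were called higher at 6, 12 and 48 h. Gbp2, an interferon-induced GTPase gene, was higher by 4.68 ± 0.53 at 6 h (limma, adjusted p = 0.000251), and Serping1, the C1 inhibitor gene, differed by -1.51 ± 0.28 at 3 h and by 2.73 ± 0.28 at 48 h (adjusted p of 0.0287 and 0.000242). Serping1 read 1.92, 2.69 and 1.95 on the injured 48 h arrays, against 1.34 on the 48 h sham (0.85 ± 0.40, adjusted p = 0.671). The median of the lipopolysaccharide list at 48 h was 0.24 against the 48 h sham. Of the ischaemia list 9 of 12 genes were measured, and 0, 2, 4 and 2 were higher at 3, 6, 12 and 48 h (4 at an unadjusted p under 0.05 at 3 h). At 3 h 0.584% of all genes were called, and the later shares are those given for the lipopolysaccharide list. The median of the ischaemia list at 48 h was 0.43 against the early shams and 0.07 against the 48 h sham. Cd14, a lipopolysaccharide co-receptor gene that is also a monocyte marker, was higher by 3.54 ± 0.61 at 6 h and 3.80 ± 0.61 at 12 h (adjusted p of 0.00619 and 0.00316), and Emp1, a membrane protein gene, by 1.56 ± 0.25 at 12 h (adjusted p = 0.00262).

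The gp130 and STAT3 list (14 of 15 measured) had 1, 3, 5 and 2 genes higher at 3, 6, 12 and 48 h against the early shams and none lower. Of all genes, 0.584% were called at 3 h, and 1.98%, 3.49% and 6.37% were called higher at 6, 12 and 48 h. The median of the list at 48 h was 0.09 against the early shams and 0.14 against the 48 h sham. Il6, the ligand, was higher by 3.15 ± 0.29 at 3 h and 3.67 ± 0.29 at 6 h (limma, adjusted p of 7.38e-05 and 1.85e-05). Stat3, the transcription factor, was higher by 1.53 ± 0.19 at 6 h and 1.96 ± 0.19 at 12 h (adjusted p of 0.00055 and 8.28e-05), and Jak2, a receptor-associated kinase gene, by 1.18 ± 0.30 at 12 h (adjusted p = 0.0393). Of 11 measured genes of 14 for hyaluronan and partners of Cd44, 0, 2, 3 and 4 were higher at 3, 6, 12 and 48 h (1 at an unadjusted p under 0.05 at 3 h). The shares of all genes are those given for the gp130 and STAT3 list. Their median at 48 h was 0.24 against the early shams and 0.19 against the 48 h sham. Has2, a hyaluronan synthase gene, was higher by 0.82 ± 0.16 at 6 h (adjusted p = 0.0136), Msn (moesin), which links Cd44 to actin, by 1.03 ± 0.24 at 12 h (adjusted p = 0.0238), and Spp1 (osteopontin), a Cd44 ligand, by 4.35 ± 1.11 at 48 h (adjusted p = 0.0259). Against the 48 h sham, at 0.37, the injured 48 h arrays of Spp1 read 2.04, 2.72 and -0.04, with replicate 3 below it (1.20 ± 1.57, adjusted p = 0.914). Of 3 measured serine protease genes, a class of enzymes that includes targets of Serpina3n in mouse, none was called at 3, 6 or 12 h (0 also at an unadjusted p under 0.05) and 1, Klk6, was higher at 48 h (1.39 ± 0.29, adjusted p = 0.00951), with 1.18 ± 0.41 against the 48 h sham (adjusted p = 0.508). At 48 h 6.37% of all genes were called higher than the early shams, and the median difference of the 3 protease genes was 0.01.

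**Figure D4:**
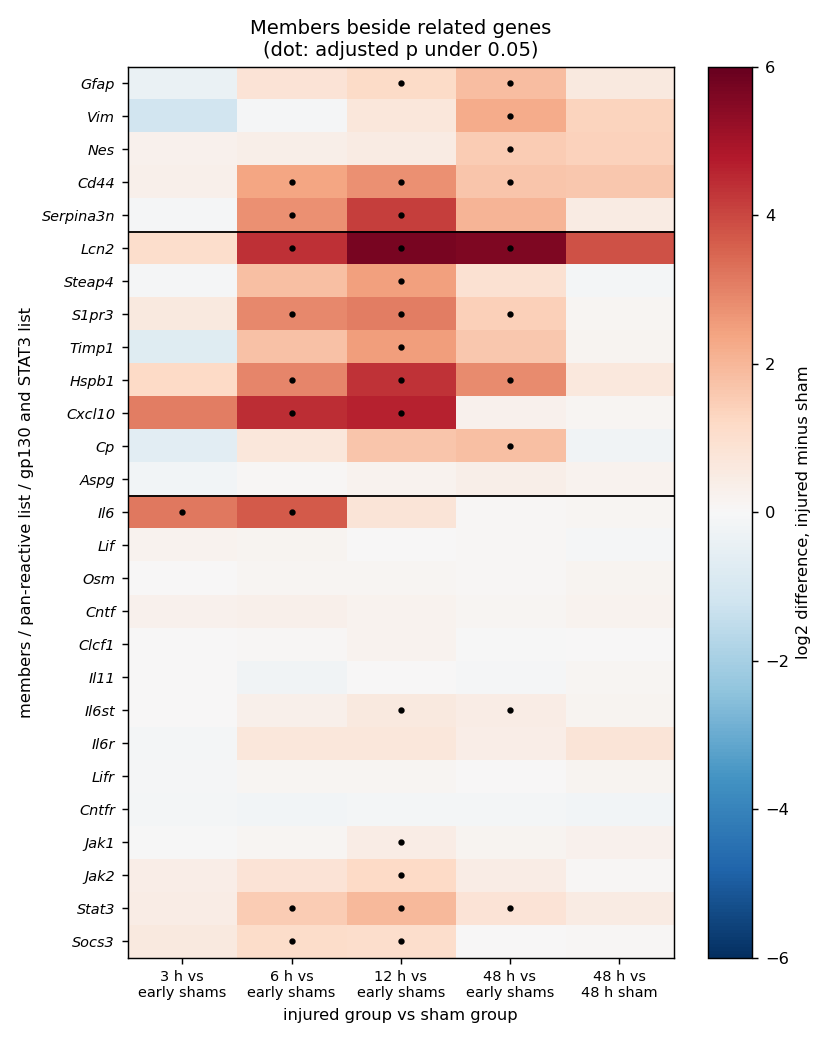
Log2 difference, injured minus sham (colour scale), for the 5 genes and the measured genes of the pan-reactive and gp130 and STAT3 lists (rows) in 5 comparisons with shams (columns). Dots mark an adjusted p under 0.05. Lcn2 reaches 5.69 at 12 h and stays at 5.62 at 48 h, against the early shams, while Il6 is highest at 6 h (3.67).

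Over the 16 arrays, which share the 6 groups, Gfap and Vim ran together (Pearson r = 0.87), as did Cd44 and Serpina3n (r = 0.87), and Vim and Cd44 least (r = 0.41). These values carry the differences between groups. For deviations from the group means the order was another: r was 0.83 for Nes and Cd44, the highest, 0.60 for Vim and Cd44, 0.50 for Gfap and Vim, 0.50 for Cd44 and Serpina3n, and -0.04 for Gfap and Serpina3n, the lowest. The genes most like Gfap were Eva1b (r = 0.939), LOC100910973 (r = 0.934) and Ifi35 (r = 0.934). Those most like Vim were Psme1 (r = 0.967), a proteasome activator gene, Cdk4 (r = 0.939), a cell cycle kinase gene, and Colgalt1 (r = 0.935). Nes was most like Cd68 (r = 0.962), Myo1f (r = 0.960), a leukocyte myosin gene, and Otulinl (r = 0.952). Cd44 was most like Tmbim1 (r = 0.968), Ano6 (r = 0.964) and Ddx39a (r = 0.961), and Serpina3n most like Steap4 (r = 0.968), a metalloreductase gene of the pan-reactive list, Tnfrsf1a (r = 0.929) and Irf9 (r = 0.929).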

How the data were processed

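The authors deposited 1 table of log intensities made with RMA, per the submitters' processing notes, with no log base given in the sources used here; these deposited values were taken as log2. Each probe set's median over the 16 arrays was 0, so the table holds differences between arrays and no levels, and no filter on dim probes, depth or scan batch could be used. Of 31099 probe sets, the 20832 with exactly 1 gene symbol were averaged to 14218 genes, with symbols updated through RefSeq for 20764. Sham arrays were numbered in accession order, and whether any arrays came from the same rat or were run together is not given in the sources used here, so p-values measure the spread between arrays. A single linear model of 6 groups was fitted with limma 3.58.1 in R 4.3.3 (10 residual degrees of freedom, moderated test, Benjamini-Hochberg over all genes), after a test on simulated data. Sequences came from RefSeq windows of GRCr8. The number of arrays limits the precision.

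The 5 genes and all lists were chosen with earlier results of these data known. The text names all 5 genes, up to 2 called genes with the largest change from each related list per comparison, the 3 genes most like each of the 5 by Pearson r, and fixed cell type markers. Genes outside that rule, Aldh1l1, Gjb6, Slc4a4, Gja1, S100a8, Cxcr2 and Clec7a, were named after their values were seen. Values of the fixed markers Cldn5, Pdgfrb and Col1a2 are not given. Alternatives were tests of single probe sets, quantile normalization, centring of each array on its median, robust empirical Bayes, a 2-fold minimum, only the groups compared, other shams, leaving out each array, a replicate block and, chosen after seeing the data, leaving out the arrays of widest spread or of highest choroid plexus markers.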

Additional observations from a re-analysis of the deposited data

Results flagged for a closer look

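The injured arrays differed between times in 9 cases by a limma test of the difference between both times. The early shams cancel in such a test, so it measures a step between injured arrays. A change of the injury effect with the 48 h sham as the control of 48 h was not tested. Between 3 and 6 h Cd44 rose by 2.06 (adjusted p = 0.0299) and Gfap by 1.24 (adjusted p = 0.0232). Between 3 and 12 h the rise was 4.18 for Serpina3n (adjusted p = 0.00303), 2.43 for Cd44 (adjusted p = 0.00437), 1.80 for Vim (adjusted p = 0.0188) and 1.56 for Gfap (adjusted p = 0.00211). Between 12 and 48 h the rise was 1.55 for Vim (adjusted p = 0.0221) and 1.05 for Nes (adjusted p = 0.0178), and Serpina3n changed by -2.10 (adjusted p = 0.0489). Against the early shams the 12 h difference was 0.67 for Vim, 0.49 for Nes and 4.13 for Serpina3n. Against the 48 h sham the 48 h difference was 1.35 for Vim, 1.38 for Nes and 0.47 for Serpina3n. No group has 4 or more arrays, so no test for a single outlying array was made.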

How the results depend on the processing

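Of 725 values of the 5 genes under alternatives, 632 kept their direction and their side of the threshold, 67 lost a call, 14 gained one and 12 changed sign, none of these called before or after. The sign changes were Cd44 at 3 h (-0.02 with quantile normalization, -0.11 without the 3 arrays highest in choroid plexus markers), Serpina3n at 3 h (-0.19 to 0.03 without 1 array), Vim at 6 h (0.13 with the single sham of the same time, -0.34 to 0.16 without 1 array), Serpina3n against the 48 h sham (-0.63 to 1.25 without 1 array, -0.63 without both arrays of the widest spread), Cd44 in the 48 h sham against the early shams (-0.25 with quantile normalization) and Cd44 from 6 to 12 h (-0.05 to 0.65 without 1 array, -0.05 without both arrays of the widest spread). The number of genes called of 5 moved as follows, and the cause was not tested except where fewer arrays were used. At 6 h it was 3 with only the 2 groups in the model (Gfap joined, adjusted p = 0.0187), 1 with robust empirical Bayes or all 4 shams as controls, 0 with the single sham of the same time, and 1 in each fit without 1 array. At 12 h it was 4 with quantile normalization (Nes joined, adjusted p = 0.0478), 2 with only the 2 groups, with all 4 shams or without both arrays of the widest spread, 2 to 3 without 1 array, and 0 with the single sham of the same time. Without the 3 arrays highest in choroid plexus markers, an alternative chosen after seeing the data, it was 1 from 3 to 6 h, 2 from 3 to 12 h and 0 from 12 to 48 h. At 6 h it stayed 2 there, with Gfap called (0.84, adjusted p = 0.018) in place of Serpina3n. Against the 48 h sham it was 0 to 1 without 1 array. At 48 h against the early shams it was 2 with only the 2 groups in the model and 3 to 5 without 1 array. For the 48 h sham against the early shams it was 1 (Serpina3n) with only the 2 groups in the model. From 3 to 6 h it was 0 to 1 without 1 array, and from 12 to 48 h it was 0 with only the 2 groups and 0 to 3 without 1 array. Quantile normalization turned the split from 12 to 48 h to 1 higher and 2 lower, against 2 higher and 1 lower. The fall of Serpina3n from 12 to 48 h was not called with robust empirical Bayes (adjusted p = 0.0623) or with single probe sets (adjusted p = 0.0522). Leaving out both arrays of the widest spread, an alternative chosen after seeing the data, ended the calls of Gfap at 12 h (1.07, adjusted p = 0.0574), Vim from 3 to 12 h (1.59) and from 12 to 48 h (1.45), and Nes from 12 to 48 h (0.76). Counts over all 14218 genes ranged from 13 to 198 at 3 h (83 as reported), 75 to 918 at 6 h (379), 91 to 1230 at 12 h (692), 0 to 129 against the 48 h sham (0) and 242 to 2054 at 48 h against the early shams (1377). For the 48 h sham against the early shams they ranged from 0 to 70 (1), and for the steps from 39 to 704 (170), 0 to 45 (2), 158 to 1405 (1142) and 288 to 2563 (2180).

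Same-numbered arrays did not deviate together (correlations of -0.19 to 0.26, with 3 of 18 pairs over 0.1), so the numbers were not taken to pair the arrays. With the replicate block the step from 3 to 6 h had 1 gene called, since Gfap was lost (1.24, adjusted p = 0.0837), and Serpina3n was lost from 12 to 48 h (-2.10, adjusted p = 0.114).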
